A study of Mus musculus with 47 samples.

Results

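The genes described here are 10 that are used to place cells between an epithelial and a mesenchymal state, out of 56748 genes in the deposited count table. They are the simple-epithelium keratins *Krt8* and *Krt18*, the epithelial cadherin *Cdh1* (E-cadherin), the mesenchymal cadherin *Cdh2* (N-cadherin), the intermediate filament gene *Vim*, and the transcription factor genes *Snai1*, *Snai2*, *Zeb1*, *Zeb2* and *Twist1*. The set was chosen by its roles with the expression values of *Krt8* and *Cdh1* in these tumors already seen, as these genes differ there in opposite directions. Their differences between tumor groups are therefore given as a description, without a test, while their correlations within groups were tested. All 10 were found in the table, through the Ensembl identifier that GENCODE gives for each symbol. Of these, 9 passed the filter on low counts in the cultured cells, where *Cdh1* did not, and all 10 passed it in the tumors.

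RNA was sequenced from B78-D14, an amelanotic mouse melanoma line derived from B16 that lacks *Cdkn2a*, and from tumors that it formed. Mitochondrial base editors had introduced a G-to-A change that creates a stop codon in *Mt-Nd5*, a subunit gene of respiratory complex I, at m.11,944 or m.12,436. Control (WT) cells and cells with m.11,944 at a heteroplasmy of 60%, the share of mitochondrial genomes that carry the change, gave 4 cultures each. Control cells and cells with m.12,436 at 40% or 60% were injected under the skin of immunocompetent male C57BL/6 mice and gave 4, 7 and 7 tumors. No group was treated with a drug, and the 26 libraries held 16475735 to 36173502 counts in genes. The labels do not say whether cultures of a group were grown separately, so their p values measure the spread between these samples only, which may be technical. Each heteroplasmy stands for 1 edited cell population, so the population and its heteroplasmy cannot be told apart, and the cultures and tumors analysed carry different mutations. Bulk RNA cannot tell fewer cells of a type from less RNA per cell.

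Epithelial cells are held together by E-cadherin at their adherens junctions and carry paired filaments of a type II keratin such as Krt8 and a type I keratin such as Krt18. In an epithelial–mesenchymal transition, the factors Snai1, Snai2, Zeb1, Zeb2 and Twist1 lower *Cdh1* and raise *Cdh2* and *Vim*. Melanocytes come from the neural crest rather than from an epithelium, yet they express *Cdh1*, which ties them to keratinocytes, and melanomas often replace it with *Cdh2*. In this lineage, *Snai2* and *Zeb2* belong to the melanocytic program and *Zeb1* and *Twist1* to a dedifferentiated state. *Krt8* and *Krt18* are expressed in some melanomas.

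Snai and Zeb factors bind the sequence CAGGTG, the E-box, in promoters. Windows of 250 bases before and 50 bases after the RefSeq start site were searched for 5 of the 10 genes (*Krt18*, *Vim*, *Snai1*, *Zeb2* and *Twist1*). On either strand, CAGGTG occurred in the windows of 2 of these genes, *Krt18* and *Snai1*, and in 20.2% of all 32817 windows of that length. *Zeb2* had 4 of the windows searched, so the count over genes and the share over windows are not in the same unit. Both stretches of 30 bases are shown because the genes of the factors are members too. Each is written along the strand of its gene, with the motif, there read as CACCTG, in capitals.
Krt18: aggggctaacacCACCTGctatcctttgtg
Snai1: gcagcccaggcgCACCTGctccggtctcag
By an exact match of the windows to GRCm39, they lie at chr15:101936425-101936454 and chr2:167379977-167380006, both on the plus strand. The motif began 214 and 126 bases before the RefSeq start. In the GENCODE annotation the *Krt18* stretch falls in no annotated gene, and the *Snai1* stretch overlaps only the opposite-strand gene *Gm75792*. A match is a description of the letters and not a site of binding.

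*Krt8* (chr15:101905133-101912917, minus strand) was lower in every m.12,436 60% tumor than in any other tumor. Expression is given as CPM, the counts of a gene relative to its library's total, which was scaled with the TMM method separately for cultures and tumors. The 4 control tumors had 373, 289, 424 and 351 CPM of *Krt8*, and the 7 m.12,436 40% tumors had 204 at the lowest, 311 at the median and 445 at the highest. The 7 m.12,436 60% tumors had 94.3 at the lowest, 110 at the median and 174 at the highest. The lowest 40% tumor thus lay above the highest 60% tumor, while the 40% and control tumors overlapped. The means were 359 ± 55.7 (SD, n = 4) in control, 318 ± 76.3 (SD, n = 7) in 40% and 126 ± 32.1 (SD, n = 7) in 60% tumors. The log2 fold change of the 60% tumors was −1.52 ± 0.19 (SE) against control and −1.34 ± 0.17 against 40% tumors, and that of the 40% tumors against control was −0.18 ± 0.19. These 3 comparisons share samples.

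*Cdh1* (chr8:107329941-107396880, plus strand) differed the other way, at a low level. The control tumors had 3.28, 3.90, 1.45 and 2.57 CPM of *Cdh1*, from 44 to 117 counts. The 40% tumors had 2.08 at the lowest, 3.58 at the median and 4.77 at the highest, and the 60% tumors had 5.13, 7.61 and 10.3, from 133 to 296 counts. All 7 of the 60% tumors lay above all other tumors, and the 40% tumors overlapped with the control tumors. The means were 2.80 ± 1.05 (SD, n = 4), 3.69 ± 0.993 (SD, n = 7) and 7.55 ± 1.68 (SD, n = 7) in control, 40% and 60% tumors. The log2 fold change of the 60% tumors was 1.43 ± 0.26 (SE) against control and 1.03 ± 0.21 against 40% tumors, and that of 40% against control tumors was 0.40 ± 0.25. Over all genes tested in the tumors, 4.07% did not overlap between 60% and control tumors, 0.623% between 60% and 40% tumors and 0.45% between 40% and control tumors. *Krt8* and *Cdh1* were the members without overlap in both, and they are the genes on which the set was chosen.

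**Figure D1:**
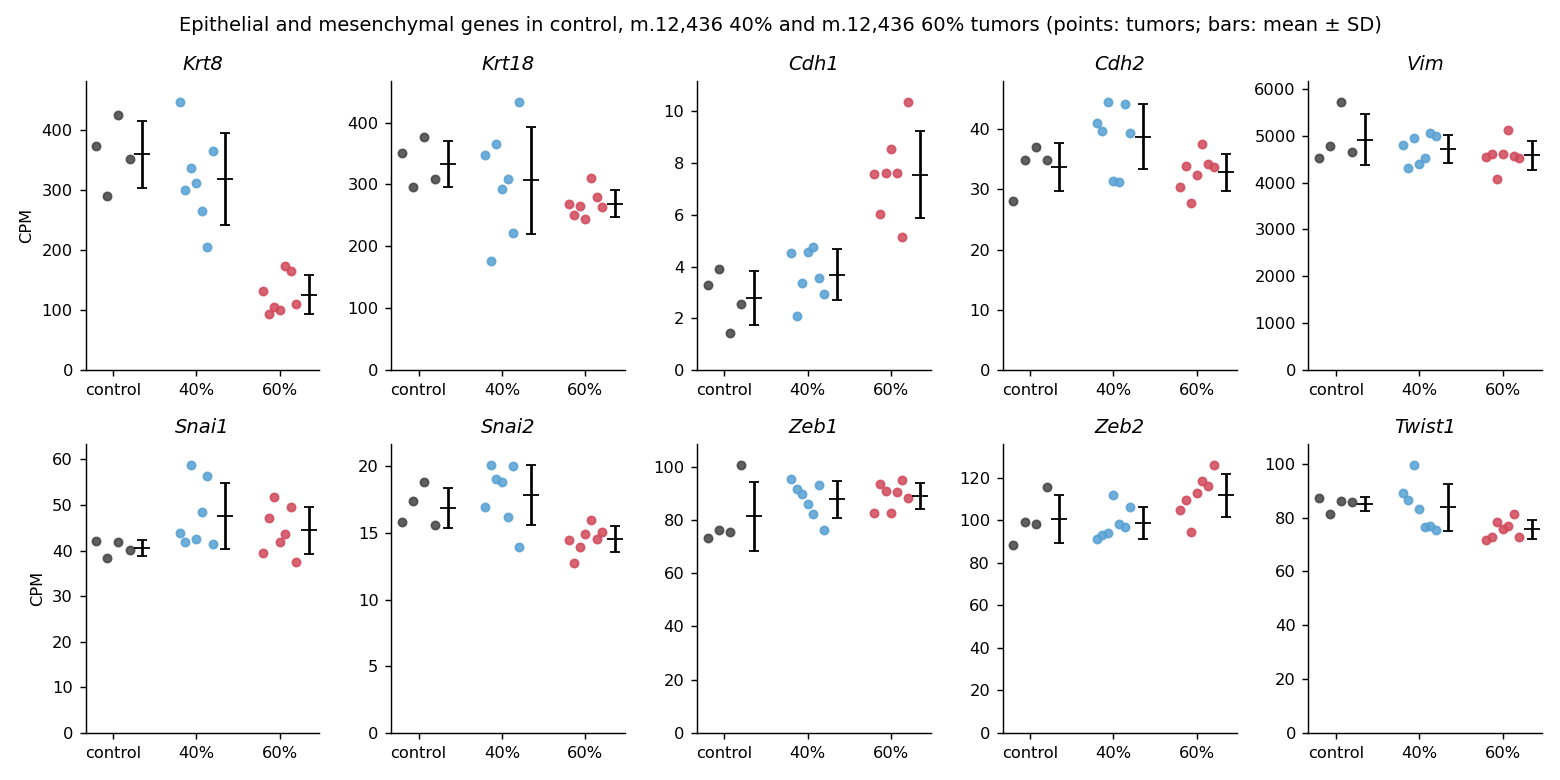
Expression of the 10 genes in each tumor (y axis, CPM) for control (n = 4), m.12,436 40% (n = 7) and m.12,436 60% (n = 7) tumors, with points for tumors and bars for the mean ± SD. The 60% tumors lie apart from the others in *Krt8*, at 94.3 to 174 CPM, and in *Cdh1*, at 5.13 to 10.3 CPM, while the other genes overlap between groups.

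*Krt18* (chr15:101936615-101940462), whose product pairs with Krt8, did not pass the test in any tumor comparison. Control tumors had 351, 296, 377 and 310 CPM of *Krt18*. The 60% tumors had 244 at the lowest, 265 at the median and 310 at the highest, and the 40% tumors had 177, 309 and 432. Of the 60% tumors, 6 of 7 lay below every control tumor, and all of them lay within the range of the 40% tumors. The log2 fold change was −0.31 ± 0.17 (SE) against control tumors (edgeR's quasi-likelihood test, adjusted p = 0.366) and −0.19 ± 0.14 against 40% tumors (adjusted p = 0.585). The value against control tumors passed the threshold of 0.1 when the 2 groups were fitted alone (adjusted p = 0.0513), with nearly the same fold change. Per kilobase of exon, *Krt8* stood at 0.718 to 0.832 times *Krt18* in control tumors, at 0.620 to 1.24 times in 40% tumors and at 0.276 to 0.434 times in 60% tumors.

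Among the markers of the mesenchymal state, *Cdh2* (chr18:16700793-16942381) and *Vim* (chr2:13578738-13587639) did not pass the test in any tumor comparison. The control tumors had 28.0, 34.9, 37.0 and 34.9 CPM of *Cdh2*, the 60% tumors 27.6 at the lowest, 33.7 at the median and 37.5 at the highest, and the 40% tumors 31.3, 39.7 and 44.4. Its log2 fold change was −0.04 ± 0.10 (SE, adjusted p = 0.886 by edgeR) in 60% against control tumors and −0.24 ± 0.09 (adjusted p = 0.210) in 60% against 40% tumors. *Vim* ranged from 4078 to 5706 CPM over the 18 tumors, with a log2 fold change of −0.10 ± 0.07 (adjusted p = 0.510) in 60% against control tumors. Per kilobase, *Cdh1* stood at 0.0731 to 0.219 times *Cdh2* in control tumors, 0.0983 to 0.286 times in 40% tumors and 0.280 to 0.575 times in 60% tumors. *Cdh2* thus remained the more abundant of these cadherin messages in all 18 tumors.

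Of the 5 transcription factor genes, 1 passed the test, in 1 comparison. This was *Snai2* (chr16:14523425-14527252), which encodes Slug. The control tumors had 15.8, 17.4, 18.8 and 15.6 CPM of *Snai2*. The 40% tumors had 14.0 at the lowest, 18.8 at the median and 20.1 at the highest, and the 60% tumors had 12.8, 14.5 and 15.9. Its log2 fold change was −0.30 ± 0.08 (SE, edgeR adjusted p = 0.0892) in 60% against 40% tumors and −0.22 ± 0.09 (adjusted p = 0.250) against control tumors. The call did not hold under limma-voom (adjusted p = 0.123), without the filter on low counts (0.144), with only these 2 groups in the fit (0.102) or in 11 of 14 fits that each left out 1 tumor. Of the 8 members other than *Krt8* and *Cdh1*, *Snai2* alone (1 of 8) passed in 60% against 40% tumors, where 1.81% of all genes did. None of these 8 passed in 60% against control tumors, where 2.31% of all genes did. In 40% against control tumors, 0% of genes passed the edgeR test, 825 had an unadjusted p under 0.05, and DESeq2 called 5.

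*Zeb1* (chr18:5591851-5775467) had 73.1, 76.2, 75.6 and 101 CPM in control tumors, 82.6 at the lowest, 90.4 at the median and 95.2 at the highest in 60% tumors, and 76.1, 89.7 and 95.3 in 40% tumors. The fourth control tumor stood above all other tumors. With it, the log2 fold change of 60% against control tumors was 0.13 ± 0.08 (SE, edgeR adjusted p = 0.433), and without it 0.26 (adjusted p = 0.0494). *Zeb2* (chr2:44873644-45007464) had 88.4, 99.2, 98.4 and 116 CPM in control tumors, and 94.5, 113 and 126 as the lowest, median and highest of the 60% tumors. In the 40% tumors these were 91.4, 96.7 and 112. The log2 fold change of *Zeb2* was 0.15 ± 0.08 (adjusted p = 0.341) against control and 0.18 ± 0.07 (adjusted p = 0.222) against 40% tumors.

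*Twist1* (chr12:34007645-34009828) had 87.2, 81.3, 86.3 and 85.6 CPM in control tumors, and 71.5, 75.9 and 81.3 as the lowest, median and highest of the 60% tumors. In the 40% tumors these were 75.5, 83.1 and 99.4. All but 1 of the 60% tumors lay below every control tumor, and the log2 fold change was −0.17 ± 0.07 (SE, edgeR adjusted p = 0.210), with an adjusted p of 0.0773 when only these 2 groups were fitted. *Snai1* (chr2:167380113-167384734) had 42.1, 38.4, 41.9 and 40.0 CPM in control tumors, 37.6 at the lowest, 43.5 at the median and 51.7 at the highest in 60% tumors, and 41.5, 43.8 and 58.8 in 40% tumors. Its log2 fold change was 0.13 ± 0.10 (adjusted p = 0.554) in 60% and 0.23 ± 0.10 (adjusted p = 0.924) in 40% against control tumors. The factor genes therefore gave no shared direction. In 60% against control tumors *Snai1*, *Zeb1* and *Zeb2* had positive and *Snai2* and *Twist1* negative fold changes, of which none passed the test.

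**Figure D2:**
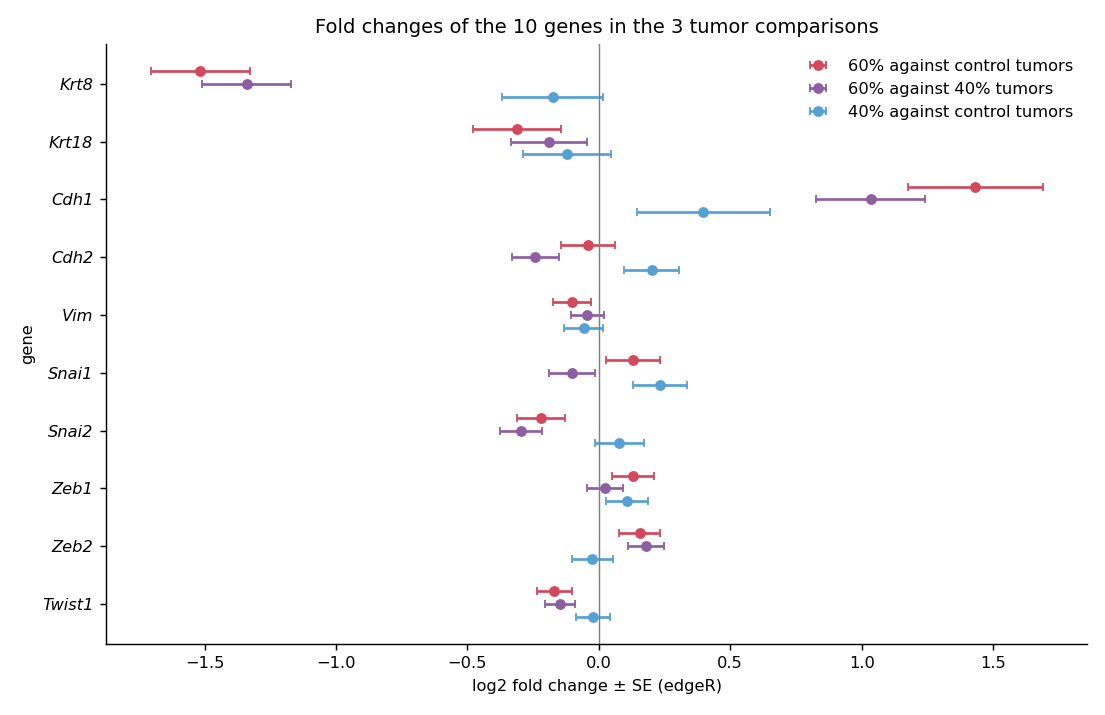
Log2 fold changes (x axis, points, with bars for ± SE from edgeR) of the 10 genes (y axis) in 60% against control, 60% against 40% and 40% against control tumors. *Krt8* (−1.52 and −1.34) and *Cdh1* (1.43 and 1.03) lie far from 0 in both comparisons of the 60% tumors, and the 8 other genes lie between −0.31 and 0.23 in all 3.

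Measured per kilobase of exon, *Vim* was the most abundant member in every group and *Cdh1* the least. In control tumors the order of mean RPKM, which is CPM per kilobase of exon, was *Vim* (1034), *Krt18* (232), *Krt8* (184), *Twist1* (51.5), *Snai1* (25.01), *Snai2* (7.30), *Zeb1* (5.97), *Zeb2* (4.42), *Cdh2* (3.89) and *Cdh1* (0.603). *Krt18* and *Krt8* overlapped between tumors, at 206 to 262 and 148 to 216 RPKM, as did *Snai2* with *Zeb1* and *Zeb2* with *Cdh2*. In 60% tumors the keratins no longer overlapped, at 170 to 216 RPKM for *Krt18* and 48.1 to 88.7 for *Krt8*, and *Krt8* there overlapped with *Twist1*, at 43.2 to 49.2. In control cultures *Twist1*, *Snai2* and *Krt8* followed *Krt18*, with overlapping values from 25.98 to 59.2 RPKM.

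*Cdh1* was hardly detected in culture. The 8 cultures had 0 to 2 counts of *Cdh1* each, and a count of 0 there allows up to 0.0820 to 0.118 CPM, depending on the library. Control tumors stood apart from control cultures in 7 of the 10 genes, which are *Cdh1* and 6 of the 9 tested in both, beside 49.7% of all genes tested in both. *Krt8* had 359 CPM on average in control tumors and 70.7 in control cultures, *Krt18* 333 and 143, *Snai1* 40.6 and 14.7, and *Zeb1* 81.4 and 51.8. *Snai2* went the other way, with 16.9 CPM in control tumors and 97.1 in control cultures, as did *Vim*, with 4913 and 7286. *Twist1* and *Zeb2* overlapped between control tumors and control cultures. A single TMM scaling over all 26 libraries moves tumors against cultures by −0.30 on the log2 scale. Under it, 8 of the 10 genes did not overlap, beside 51.1% of all genes, with *Cdh2* added, *Krt8* was 4.14 times as high in tumors in place of 5.08 times, and the ratio of tumors to cultures fell below 1 for *Twist1* and *Zeb2*, whose values overlap. Cultures and tumors were compared as levels only, and tumors also hold host cells.

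The other cell types of a tumor piece were checked through marker genes. Of the defining keratinocyte markers, *Krt5* and *Krt14* were at or below 0.0666 CPM in every tumor, and the luminal markers *Epcam* and *Esrp1* were at or below 0.388 CPM. Of the other luminal markers, *Muc1* reached 1.44 CPM and *Krt19* 1.78 CPM, and all 8 together summed to 1.66 to 3.09 CPM in control, 1.89 to 2.49 in 40% and 1.63 to 2.36 in 60% tumors. The keratinocyte markers *Krt10* and *Sfn* were present in every tumor, at 1.76 to 3.06 and 1.63 to 3.73 CPM. The summed CPM of the 14 keratinocyte markers found in the table was 4.81 to 6.33 in control, 4.07 to 5.45 in 40% and 4.41 to 6.25 in 60% tumors, and 5, 7 and 6 of them had no count in the whole group. Of the 10 melanocyte markers, 2 passed the filter on low counts and 1, *Pmel*, fell in 60% against control tumors, at −2.21 ± 0.51 on the log2 scale (edgeR, adjusted p = 0.0456), where 2.31% of all genes passed. It had 0.584 CPM at the lowest, 1.083 at the median and 8.79 at the highest in control tumors, 0.291 to 0.539 in 40% tumors and 0.498 to 0.787 in 60% tumors. The lowest control tumor thus lay within the range of the 60% tumors. With the tumor number fitted as well, *Pmel* did not pass. Against 40% tumors both tested markers had positive fold changes, and neither passed. *Sox10*, a defining factor of the melanocyte lineage, had no count in 2 control tumors and reached 1.90 and 9.58 CPM in control tumors 2 and 3, while it was at or below 0.140 CPM in every edited tumor and at or below 0.305 CPM in every culture. *Sox10* was thus at or near 0 in all tumors but these 2. *Mitf*, the other melanocyte marker tested, which encodes a master regulator of the lineage, was present in every tumor, at 18.2 to 25.999 CPM in control, 14.9 to 27.2 in 40% and 20.3 to 27.3 in 60% tumors, and had a log2 fold change of 0.23 ± 0.14 (adjusted p = 0.436) in 60% against control tumors. All 10 melanocyte markers summed to 22.4 to 69.5 CPM in control, 15.2 to 27.7 in 40% and 21.05 to 28.1 in 60% tumors. Without control tumor 3, the log2 fold change of 60% against control tumors was −1.42 for *Krt8* and 1.22 for *Cdh1*, and without control tumor 2 it was −1.60 and 1.65.

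Of the 10 leukocyte markers, 1 rose in the 60% tumors and 9 did not pass, in each comparison, beside 2.31% of all genes passing against control and 1.81% against 40% tumors. *Ptprc*, which encodes the leukocyte antigen CD45, had 68.2, 95.8, 51.0 and 77.0 CPM in control tumors, 55.3 at the lowest, 80.6 at the median and 103 at the highest in 40% tumors, and 81.3, 110 and 154 in 60% tumors. It overlapped between the groups and did not pass the test, at 0.61 ± 0.19 (SE, edgeR adjusted p = 0.135) against control tumors. All 10 leukocyte markers had a positive fold change in 60% against control tumors, with a median of 0.39 beside −0.0025 over all genes tested. Their summed level ran from 959 to 1270 CPM in control, 996 to 1218 in 40% and 1118 to 1828 in 60% tumors. The marker that rose was *Itgb2*, by 0.61 ± 0.16 (adjusted p = 0.0726) against control and 0.77 ± 0.13 (adjusted p = 0.0110) against 40% tumors. With the mean of these markers as a covariate, the log2 fold change of 60% against control tumors was −1.17 ± 0.21 for *Krt8* and 1.13 ± 0.28 for *Cdh1*, and against 40% tumors −1.04 ± 0.18 and 0.74 ± 0.25. The 10 T and NK cell markers also all had positive fold changes in 60% against control tumors, with a median of 0.76 and none past the test. The 10 fibroblast markers, at 10731 to 12338 CPM in control and 11912 to 14815 in 60% tumors, had 4 positive fold changes and a median of −0.04. Skeletal muscle varied most between tumors. The 10 muscle markers summed to 2.75 CPM at the lowest, 95.6 at the median and 250 at the highest in control tumors, 52.6, 181 and 368 in 40% tumors and 2.52, 2.93 and 397 in 60% tumors, so that the groups overlapped. None of them passed the test. Their median log2 fold change was −0.0091 in 60% against control tumors, with 4 of 10 positive, and −0.76 in 60% against 40% tumors, with 0 of 10 positive. The 10 endothelial markers, at 232 to 347 CPM in control, 205 to 341 in 40% and 179 to 300 in 60% tumors, had 0 positive fold changes in 60% against control tumors, with a median of −0.20 and none past the test. The 10 macrophage markers summed to 1334 to 1686 CPM in control, 1298 to 1644 in 40% and 1185 to 2035 in 60% tumors. Positive fold changes numbered 8 in 60% against control tumors (median 0.18) and 7 against 40% tumors (0.24). The 10 dendritic and Langerhans cell markers summed to 42.9 to 59.3, 41.3 to 66.1 and 47.4 to 78.7 CPM. Of 9 tested, 7 were positive against control (0.34) and 8 against 40% tumors (0.33). No gene of either list passed. The part of all these cells in the differences of *Krt8* and *Cdh1* was not tested.

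Within the 60% group, *Krt8* and *Krt18* varied together (Pearson's r = 0.897, exact permutation p = 0.000992, adjusted p = 0.00794 over 8 correlations, n = 7). Spearman's rho was 0.929 (exact permutation p = 0.00675, adjusted p = 0.0540, n = 7). Without the 2 tumors farthest from the median of *Krt8*, r was 0.735 (n = 5). In the 40% group r was 0.595 (exact permutation p = 0.157, adjusted p = 0.320, n = 7) and rho 0.714 (exact permutation p = 0.0881, adjusted p = 0.352, n = 7), with r = 0.542 without the farthest 2. *Krt8* and *Cdh1*, which differ in opposite directions between groups, had no correlation past the threshold within them. In 60% tumors r was −0.336 and rho −0.214 (exact permutation p = 0.457 and 0.662, adjusted p = 0.609 and 0.815, n = 7), and r was 0.300 without the farthest 2 tumors. In 40% tumors r was 0.0428 and rho −0.179 (exact permutation p = 0.930 and 0.713, adjusted p = 0.945 and 0.815, n = 7), with r = −0.379 without the farthest 2.

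*Cdh1* and *Ptprc* had r = 0.717 and rho = 0.607 in 60% tumors (exact permutation p = 0.0708 and 0.167, adjusted p = 0.283 and 0.444, n = 7). The value rested on the 2 tumors farthest from the median of *Cdh1*, without which r was 0.132. In 40% tumors r was 0.0339 and rho 0.286 (exact permutation p = 0.945 and 0.556, adjusted p = 0.945 and 0.815, n = 7), with r = −0.192 without the farthest 2. *Krt8* and *Ptprc* had r = −0.597 and rho = −0.393 in 60% tumors (exact permutation p = 0.160 and 0.396, adjusted p = 0.320 and 0.791, n = 7), which turned to r = 0.403 without the farthest 2. In 40% tumors r was −0.379 and rho −0.0714 (exact permutation p = 0.398 and 0.906, adjusted p = 0.609 and 0.906, n = 7), with r = 0.0901 without the farthest 2. With 4 control tumors, no correlation was computed there.

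**Figure D3:**
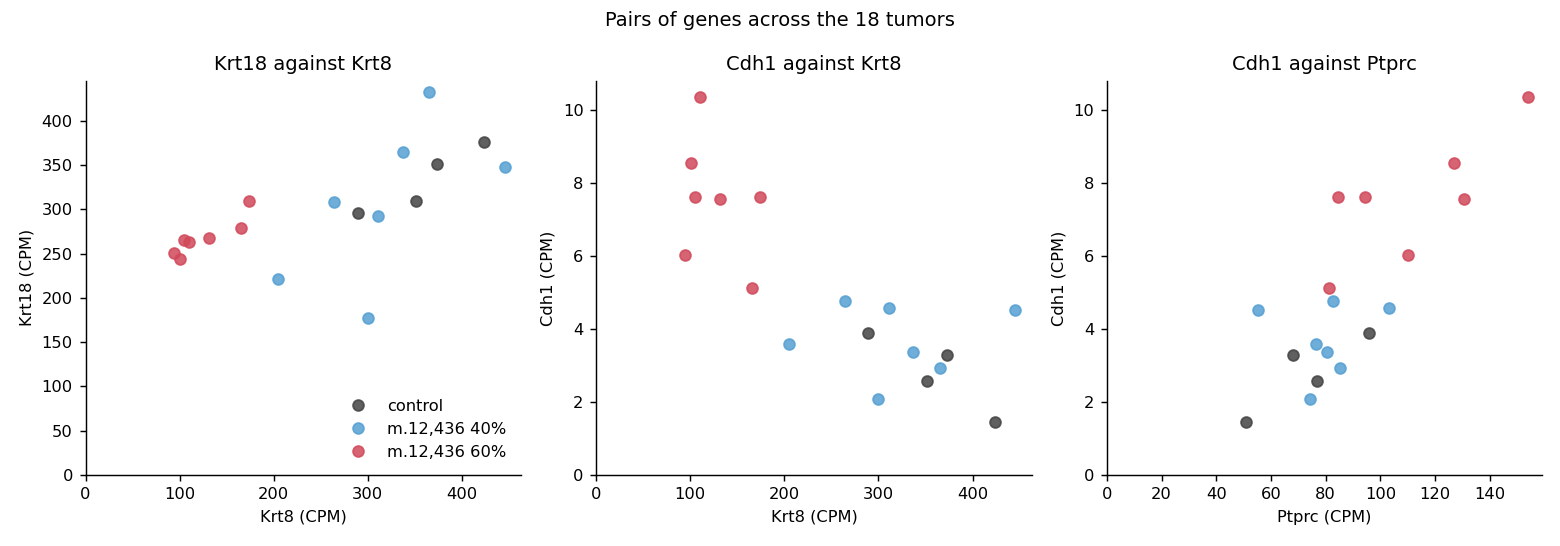
*Krt18* against *Krt8*, *Cdh1* against *Krt8* and *Cdh1* against *Ptprc* (both axes in CPM), with 1 point for each of the 18 tumors, coloured by group. Within the 60% tumors *Krt18* follows *Krt8* (r = 0.897), and the groups overlap in *Ptprc*, at 51.0 to 95.8 CPM in control, 55.3 to 103 in 40% and 81.3 to 154 in 60% tumors.

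Over the 18 tumors, with the group means removed, the genes most like *Krt8* among 12302 with a mean log2 CPM of at least 1 were *Sart1*, which encodes a splicing factor (Pearson's r = 0.734), the small GTPase gene *Rhob* (0.725) and the F-box gene *Fbxo36* (0.717). *Krt18* stood at rank 60, with r = 0.592, and *Twist1* at rank 352, with 0.460. Those most like *Cdh1* were the glycosyltransferase gene *Gbgt1* (0.832), the pseudogene *Gm15931* (0.823) and *Glcci1* (0.816), and no other member exceeded 0.117. These values describe the same 18 libraries, and genes are not independent replicates.

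No chromosomal neighbour of *Cdh1* passed the test. The 3 nearest tested genes on either side (*Smpd3*, *Zfp90*, *Gm10073*, *Tango6*, *Has3* and *Chtf8*) had log2 fold changes from −0.67 to 0.09 in 60% against control tumors and from −0.23 to 0.34 against 40% tumors. *Krt8* and *Krt18* lie 23697 bases apart on chromosome 15. Between them, *Gm36026* shares 271 bases with the 5′ end of *Krt8* on the opposite strand. Its fold change was −1.03 ± 0.28 (SE, edgeR adjusted p = 0.0878) in 60% against control tumors and −0.73 ± 0.25 (adjusted p = 0.184) against 40% tumors. Whether reads were counted by strand is not stated in the sources used here, so reads of both genes cannot be told apart in the shared bases. *Gm36026* was named after its values were seen, because of this overlap. A processed pseudogene of *Krt8* (*Krt8-ps*) is annotated on chromosome 7, and reads of near-identical copies may have been left out or split.

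Of the 3 tested genes on either side of the keratin pair, *Atg101*, *Eif4b*, *Tns2* and *Spryd3* had fold changes between −0.12 and 0.07 in both comparisons of the 60% tumors. *Krt80*, a type II keratin gene that starts 660 kb from *Krt8*, rose. Control tumors had 7.14, 9.56, 8.03 and 9.71 CPM of *Krt80*, the 40% tumors 7.51 at the lowest, 8.41 at the median and 10.8 at the highest, and the 60% tumors 9.57, 13.1 and 15.2, with 6 of 7 above all other tumors. Its log2 fold change was 0.57 ± 0.13 (SE, edgeR adjusted p = 0.0368) against control and 0.55 ± 0.11 (adjusted p = 0.0182) against 40% tumors. The noncoding gene *Gm35853*, whose span contains *Krt80* on the opposite strand, rose as well, by 0.80 ± 0.23 (adjusted p = 0.0981) and 0.89 ± 0.19 (adjusted p = 0.0350), with the same limit on strand.

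**Figure D4:**
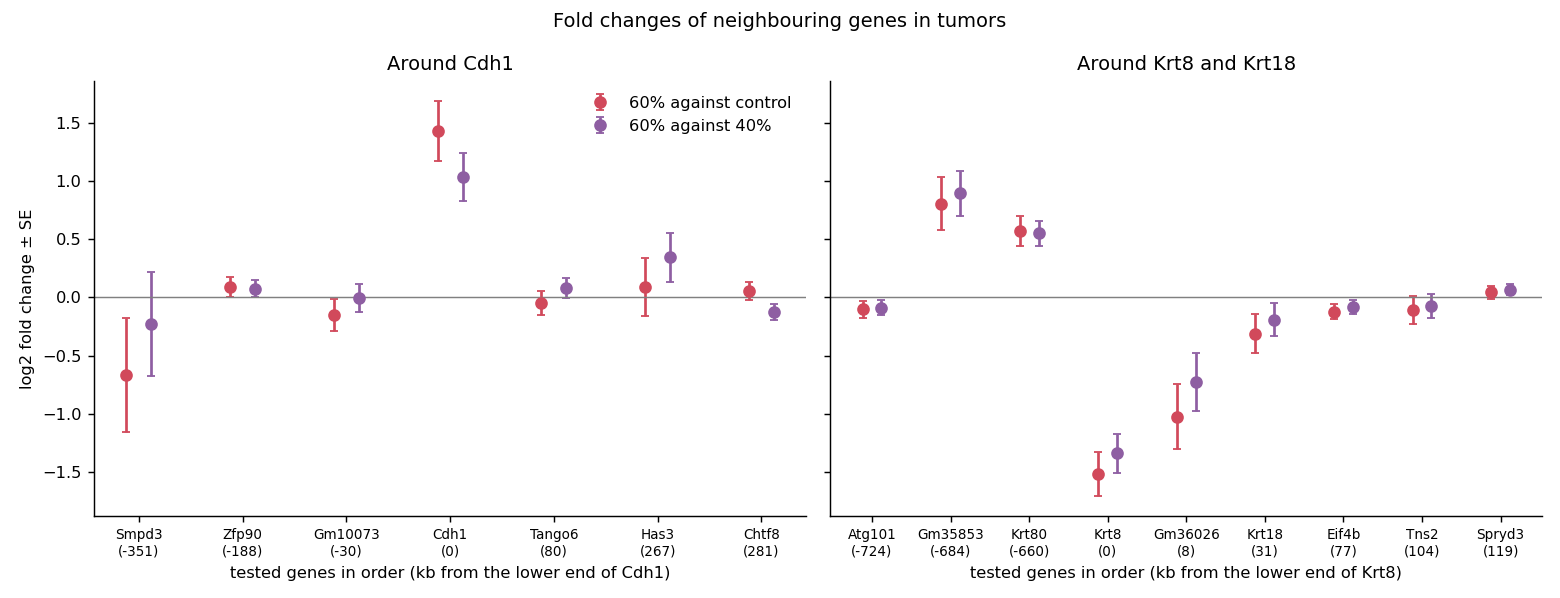
Log2 fold changes (y axis, points, with bars for ± SE) of tested genes in chromosomal order around *Cdh1* and around *Krt8* and *Krt18*, with the distance in kb in brackets, for 60% against control and 60% against 40% tumors. *Cdh1* (1.43) and *Krt8* (−1.52) stand apart from the genes next to them, except that *Gm36026*, which overlaps *Krt8*, is at −1.03.

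Some other genes of the epithelial program passed the test in the tumors, in both directions, and most did not. Of 2 tested simple epithelial keratins beside the members, 1, *Krt80*, rose in both comparisons of the 60% tumors. Of 39 genes of epithelial junctions and polarity, 24 were tested. In 60% against control tumors 1 of them rose, 2 fell and 21 did not pass, beside 2.31% of all genes passing, with a median log2 fold change of −0.02 beside −0.0025 over all genes tested. The gene that rose was *F11r*, which encodes the junctional adhesion molecule JAM-A, with 23.6 ± 4.07 CPM (SD, n = 4) in control and 37.3 ± 3.52 (SD, n = 7) in 60% tumors, which did not overlap. Those that fell were the plakin gene *Ppl*, at −2.0 ± 0.39 (SE, edgeR adjusted p = 0.0205), and *Itgb4*, the integrin β4 gene of hemidesmosomes, at −0.76 ± 0.14 (adjusted p = 0.0126). *Ppl* had 3.85 ± 1.20 CPM (SD, n = 4) in control and 0.963 ± 0.343 (SD, n = 7) in 60% tumors. Against 40% tumors, where 1.81% of all genes passed, *F11r* rose (0.48 ± 0.12, adjusted p = 0.0744) and *Ppl* (−2.0 ± 0.36, adjusted p = 0.0132), *Itgb4* and *Cldn12* fell. Of 5 tested epithelial transcription and splicing factors, *Klf4* rose against control tumors (0.58 ± 0.16, adjusted p = 0.0977). *Esrp1* and most others of the 18 on that list were filtered out.

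In the tumors, most tested mesenchymal, cadherin, other intermediate filament and TGF-β genes did not pass. A shared direction over these lists was not tested. Of 32 tested genes of mesenchymal structure and matrix remodelling, 1 fell and 31 did not pass in 60% against control tumors, beside 2.31% of all genes passing, and the median log2 fold change was 0.05, with 19 positive. *S100a4*, which encodes a calcium-binding protein also called fibroblast-specific protein, fell by 0.57 ± 0.11 on the log2 scale (edgeR, adjusted p = 0.0123), from 301 ± 35.6 CPM (SD, n = 4) in control to 202 ± 25.8 (SD, n = 7) in 60% tumors, with no overlap. Against 40% tumors it fell by 0.52 ± 0.09 (adjusted p = 0.0110), and the adaptor gene *Dab2* fell by 0.34 ± 0.09 (adjusted p = 0.0935). None of 17 tested further transcription factors of the transition passed in any tumor comparison. Of 32 tested TGF-β genes, 2 rose and 1 fell against control tumors, with a median of 0.07. *Skil*, a repressor of Smad proteins (0.48 ± 0.09, adjusted p = 0.0176), and the receptor gene *Acvrl1* (0.40 ± 0.11, adjusted p = 0.0880) rose in 60% against control tumors, and *Bmp4* fell (−1.08 ± 0.29, adjusted p = 0.0748). Against 40% tumors, where 1.81% of all genes passed, 3 of these 32 rose, among them *Acvrl1* (adjusted p = 0.0621) and *Skil* (adjusted p = 0.0674). *Smad1* fell there (−0.36 ± 0.07, adjusted p = 0.0160). Of 6 tested other cadherins, *Cdh13* fell against control tumors (−0.69 ± 0.18, adjusted p = 0.0748), with 0 of 6 fold changes positive and a median of −0.23. Of 10 tested other intermediate filament genes, 1 had a positive fold change against control tumors and the median was −0.29. *Prph*, the peripherin gene of neurons, fell in both comparisons (−2.10 ± 0.44 and −1.57 ± 0.40, adjusted p = 0.0310 and 0.0796) and *Lmnb2* fell against control tumors (adjusted p = 0.0995).

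In the cultures, which carry m.11,944 rather than m.12,436, none of the 9 tested members passed the edgeR test without regard to the culture numbers, as was so for all but 0.0387% of genes. Cultures of the same number deviated together from their group means, so the number was also fitted as a block. With it, 7.11% of all genes passed, and 1 of the 9 members did. *Zeb2* had 120, 128, 53.8 and 49.6 CPM in control cultures 1 to 4 and 72.0, 63.7, 49.4 and 43.6 in m.11,944 60% cultures, lower in all 4 pairs. Its log2 fold change was −0.52 ± 0.14 (SE, edgeR with block, adjusted p = 0.0940) and −0.62 ± 0.35 (adjusted p = 1.00) without the block. The difference was smaller in cultures 3 and 4, in which the control level was lower. With the block, *Zeb2* held the call without culture number 3 or 4 (adjusted p = 0.0878 and 0.0461) and lost it without number 1 or 2.

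*Krt8*, lower in the 60% tumors, had 51.2, 50.9, 64.9 and 116 CPM in control cultures 1 to 4 and 61.9, 65.0, 158 and 118 in edited cultures. It was higher in 4 of 4 pairs, by 1.28 on the log2 scale in pair 3 and by 0.02 in pair 4, and with the block its fold change was 0.48 ± 0.18 (SE, edgeR adjusted p = 0.177). *Krt18* had 177, 165, 91.3 and 140 CPM in control and 123, 117, 118.7 and 128 in edited cultures, lower in 3 of 4 pairs (−0.20 ± 0.14 with the block, adjusted p = 0.452). *Snai1* had 12.8, 11.5, 24.5 and 10.1 CPM in control and 9.96, 9.59, 15.3 and 9.71 in edited cultures, lower in 4 of 4 pairs (−0.35 ± 0.12, adjusted p = 0.121). *Twist1* had 92.7, 91.9, 68.8 and 65.9 CPM in control and 64.2, 71.0, 63.5 and 65.9 in edited cultures (−0.25 ± 0.09, adjusted p = 0.146). Groups overlapped in all 9 tested members, beside 3.48% of all genes without overlap. The remaining members had blocked fold changes between 0.02 and 0.13, with adjusted p from 0.413 to 0.893.

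Some members differed between culture numbers in the same way in both groups. *Snai2* had 125 and 123 CPM in control cultures 1 and 2 and 66.9 and 73.4 in 3 and 4, and 148, 134, 70.9 and 62.4 in the edited ones. *Cdh2* ran the other way, with 34.4, 32.6, 65.6 and 52.2 CPM in control and 39.8, 35.9, 60.0 and 53.1 in edited cultures. What the numbers stand for is not given in the labels.

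**Figure D5:**
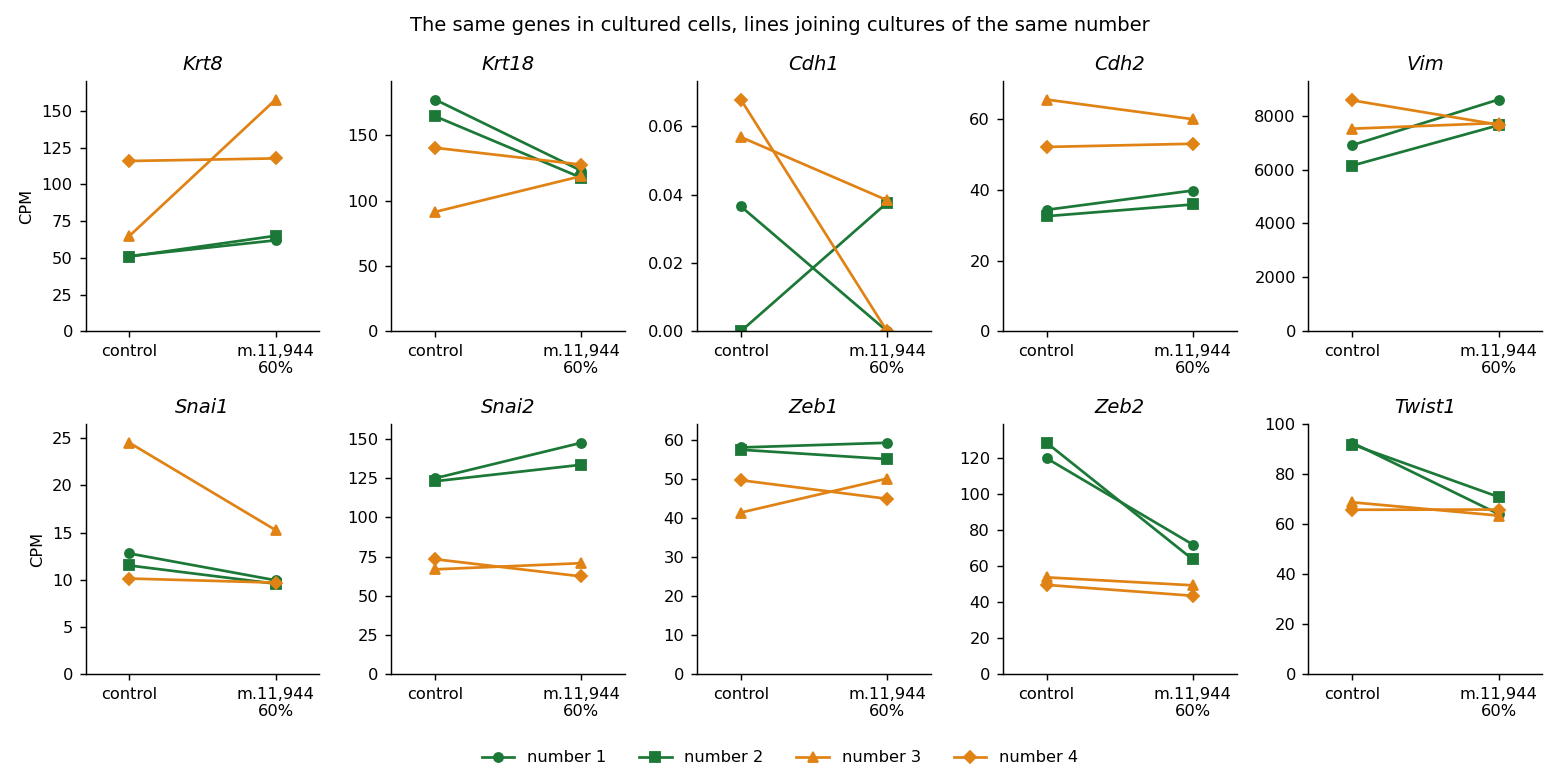
Expression of the 10 genes (y axis, CPM) in control and m.11,944 60% cultures, with lines joining cultures of the same number (1 and 2 in green, 3 and 4 in orange). *Zeb2* and *Snai1* are lower in the edited culture in all 4 pairs, *Krt8* is higher in all 4, and the *Cdh1* axis ends below 0.1 CPM, at 0 to 2 counts per culture.

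Without the block, no gene of the pathway lists passed in culture. The counts that follow are with the block, under which 7.11% of all genes passed. Of 17 tested junction genes, 4 fell, among them *F11r* (−0.76 ± 0.16, edgeR adjusted p = 0.0472), which rose in the m.12,436 60% tumors, and *Jup* (−0.76 ± 0.19, adjusted p = 0.0693), the plakoglobin gene. *Klf5*, 1 of 5 tested epithelial factors, fell (−0.52 ± 0.13, adjusted p = 0.0723). Of 15 further transition factors, *Sox9* (−1.93 ± 0.24, adjusted p = 0.0119), *Sox4* (−0.76 ± 0.11, adjusted p = 0.0119) and 1 other fell and *Foxc1* rose (0.60 ± 0.13, adjusted p = 0.0432). Of 24 mesenchymal genes, *Mmp3* (−1.64 ± 0.24, adjusted p = 0.0167), *Spp1* (−0.77 ± 0.17, adjusted p = 0.0591) and 1 other fell, and *Tpm2* (0.29 ± 0.06, adjusted p = 0.0458) and *Thbs1* (0.43 ± 0.11, adjusted p = 0.0803) rose. Of 27 TGF-β genes, 5 fell, led by *Smad7* (−0.58 ± 0.12, adjusted p = 0.0458) and *Skil* (−0.42 ± 0.09, adjusted p = 0.05002), and *Tgfbr2* rose (0.49 ± 0.11, adjusted p = 0.0553). Of 10 other intermediate filament genes, *Nefl* and *Sync* rose. Cultures and tumors differ in mutation as well as in setting, and the difference between their effects was not tested.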

How the data were processed

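The authors aligned reads to GRCm39 with STAR, counted them on Ensembl genes with featureCounts and deposited raw counts per gene. Whether strand was used is not given in the sources used here. Of 47 columns, 26 were matched to samples from their names, numbering and the headings of the study's source data (high and low stand for 60% and 40%, and among the labels only the m.12,436 tumor groups reach 7), and 21 were not used. Totals lay between 16475735 and 36173502 counts, and their number limits the precision of low genes such as *Cdh1*. CPM used edgeR 4.0.16 TMM factors, and RPKM the exon lengths of GENCODE vM39 on GRCm39, which held 56017 of 56748 genes.

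Genes kept by filterByExpr (12930 in cultures, 16213 in tumors) were compared with edgeR's robust quasi-likelihood test, cultures and tumors apart and all 3 tumor groups in 1 fit. Two-sided p values were Benjamini–Hochberg adjusted over all genes and called under 0.1. Correlations used log2 CPM (prior count 2) and exact permutation. In simulated data, 33% of 200 genes changed by 1 on the log2 scale were found in cultures, and 82% and 85.5% in 60% tumors against control and against 40% tumors. Of the calls in these 3 simulated comparisons, 7.04%, 11.4% and 9.52% were false. Same-numbered cultures deviated together (r = 0.718 to 0.832 across genes, with the numbers from the labels), but so did numbers 1 and 2 (0.786 and 0.810) and 3 and 4 (0.594 and 0.719), while other numbers deviated in opposite directions. Same-numbered tumors did not deviate together. Alternatives were limma-voom 3.58.1, DESeq2 1.42.0, its size factors, other filters, a threshold of 0.05, the block, only the groups compared, a leukocyte covariate and leaving out each sample.

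The members and gene lists were chosen with earlier results of these data known. Named genes are the members, up to 2 that rose and 2 that fell per list and comparison by smallest p, the 3 nearest tested neighbours on either side, the 3 genes most correlated with *Krt8* and *Cdh1*, *Ptprc* and *Sox10*. Promoter windows are RefSeq's, annotated on GRCm38.p6 and placed on GRCm39 by exact match, and those of the other 5 members are not reported here.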

Additional observations from a re-analysis of the deposited data

Results flagged for a closer look

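Over 50 combinations of the 10 genes and 5 groups, 3 had 1 sample far from the rest of its group, measured as the gap to the nearest sample over the group's range. Chance flags about 1 in 20 such groups. *Zeb1* in the fourth control tumor, at 101 CPM, stood above the next control tumor, at 76.2 CPM. *Vim* in the first m.11,944 60% culture, at 8598 CPM, stood above the next, at 7727 CPM. *Snai1* in the third m.11,944 60% culture, at 15.3 CPM, stood above the next, at 9.96 CPM, and the control culture of the same number also had the highest *Snai1* of its group, at 24.5 CPM.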

How the results depend on the processing

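The direction of *Krt8* and *Cdh1* in both comparisons of the 60% tumors was the same under every alternative run. This gives no support, as the set was chosen on these directions in the same tumors and the groups do not overlap. Counts of changed genes moved with the processing. In cultures, 5 genes became 84 with DESeq2, 0 with at least 10 counts in every sample (498 at an unadjusted p under 0.05) and 919 with the replicate block. They were 0 with any culture left out and 89, 110, 602 and 2092 with the block and culture number 1, 2, 3 or 4 left out, an alternative chosen after seeing the data. In 60% against control tumors, 374 genes became 1056 with DESeq2 (565 higher and 491 lower, beside 156 and 218), 943 with only the 2 groups, 150 at an adjusted p under 0.05, 24 with the leukocyte covariate and 66 to 724 with a tumor left out, with over 1.5 times fewer without control tumor 1 (125) or 3 (66) or 60% tumor 1 (186), 3 (239) or 4 (207) and more without control tumor 2 (716) or 4 (724). In 40% against control tumors, 0 became 5 with DESeq2 and 0 to 4 with a tumor left out. In 60% against 40% tumors, 293 became 744, 178 without the low-count filter, 113 at an adjusted p under 0.05, 43 with the covariate and 108 to 452 with a tumor left out, with over 1.5 times fewer without 60% tumor 1, 2, 4 or 7 or 40% tumor 1 or 6 (108 to 139) and more without 40% tumor 4 (452). Same-numbered tumors did not deviate together (mean r of −0.156, −0.00581 and −0.0264 in the 3 comparisons), and the replicate block gave 283, 0 and 266 genes there.

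Members with small fold changes turned direction. With the covariate these were *Cdh2* in 60% against control tumors (0.0463) and *Vim* (0.0202) and *Snai1* (0.0415) in 60% against 40% tumors, and with the block *Twist1* in 40% against control tumors (0.0740). Leaving out 1 sample gave ranges across 0 for *Cdh2* (−0.11 to 0.25), *Snai2* (−0.13 to 0.27) and *Zeb1* (−0.0727 to 0.0855) in cultures, *Cdh2* in 60% (−0.12 to 0.0137) and *Vim* (−0.10 to 0.0288), *Zeb2* (−0.0804 to 0.0621) and *Twist1* (−0.0561 to 0.00551) in 40% against control tumors, and *Zeb1* in 60% against 40% tumors (−0.0106 to 0.0392). With the block and number 1 or 3 left out, *Snai2* (−0.00694) and *Zeb1* (−0.0647) turned in cultures. The correlation of *Krt8* and *Krt18* in 60% tumors missed 0.05 as Spearman's rho (0.929), that of *Krt8* and *Cdh1* in 40% tumors was −0.179 as rho, and that of *Cdh1* with the leukocyte score there was −0.158. Of the members' calls, *Krt18* against control tumors passed with the block (−0.36, adjusted p = 0.0824) and *Snai2* in 60% against 40% tumors did not (adjusted p = 0.194). The cause was not tested for any of these.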
